A study of Triticum aestivum with 34 samples.

Results

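The genes described here are the wheat genes that make, break down and respond to cytokinins, measured in spikelets of the young ear. A gene model was taken when the deposited description named cytokinin, a phosphoribohydrolase LOG or a two-component response regulator. Clock-related models described as PRR73, PRR95 or APRR3 were left out, and a model had to reach 1 FPKM (fragments scaled for transcript length and library total) in at least 2 libraries. The words matched 149 of 162233 models, and 78 of these passed the level limit, among 71963 models that passed it in the whole table. The 71 that did not pass had a mean of at most 0.561 FPKM. At the limit, the 3 models with exactly 2 libraries at 1 FPKM peaked at 1.14 to 1.74 FPKM, and the 6 left out with 1 such library peaked at 1.19 to 1.49 FPKM.

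Cytokinins are adenine-derived plant hormones that keep meristem cells dividing. LOG enzymes release the active free base from the inactive nucleotide, and cytokinin oxidase/dehydrogenases break the hormone down irreversibly. Histidine kinase receptors pass the signal through phosphotransfer proteins to nuclear response regulators. Type-B regulators are the transcription factors at the end of this relay, and type-A regulators are early target genes whose products damp the signal. In rice, loss of LOG shortens the life of floral meristems, and a cytokinin oxidase gene is a known locus for grain number.

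The samples were untreated wheat (Triticum aestivum, genotype shimai22), and messenger RNA was measured by RNA sequencing. Basal spikelets, at the foot of the ear, were compared with central spikelets on 6 days, namely days 6, 9, 12, 15, 21 and 27 after the terminal spikelet stage, when the ear has completed its set of spikelets. Groups held 3 libraries, apart from 2 for basal spikelets on day 15 and 2 for central spikelets on day 21, so that there were 17 basal and 17 central libraries. The labels did not say whether replicates came from separate plants or how many ears were pooled, so p-values measure only the spread between these libraries.

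Totals were 95144712 to 126139684 estimated counts per library, and 49060 to 55909 models reached 1 FPKM. The first principal component held 51.7% of the variance and the second 20.3%. Whole spikelets hold many tissues, and fewer cells of a type cannot be told apart from less RNA per cell. Models described as MADS-box factors, some of which specify floral organs, included 33 lower and 18 higher models in basal spikelets among 75 tested in the mean of 6 days. They summed to 778 to 1398 FPKM in basal against 930 to 1718 FPKM in central libraries. Of 74 tested chlorophyll a-b binding protein models, 60 were lower and 0 higher in the same mean. Their summed level was 419 to 11433 FPKM in basal against 870 to 18264 FPKM in central libraries, and on day 21 42 of them were higher in basal spikelets. Of 31 models for secondary wall cellulose synthases and laccases, 19 were lower and 1 higher, at 18.5 to 889 FPKM in basal against 27.9 to 555 FPKM in central libraries, and on days 21 and 27 20 and 15 of them were higher. Of 78 cell division models, 8 were higher and 5 lower, at 245 to 2176 FPKM in basal against 400 to 1932 FPKM in central libraries. By day they were split unevenly, with 25 higher and 1 lower on day 12, and 2 higher and 17 lower on day 21. Of 85 models for anther and pollen proteins, 10 were lower and 1 higher, at 80.8 to 893 FPKM in basal against 85.9 to 687 FPKM in central libraries, and on day 27 22 were higher and 9 lower. Of the models matched for these lists, 1 anther or pollen model was at 0 in every library. The part of these tissue differences in the results below was not tested.

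The first question was how the cytokinin genes differ between basal and central spikelets over the whole course. Differences are basal minus central on the log2 scale, with an approximate standard error, from edgeR's quasi-likelihood test on counts with Benjamini-Hochberg adjustment over all 71963 models, and a gene was called at an adjusted p below 0.05. In the mean of the 6 daily differences, 39 of 78 genes were called (50.0%), beside 33.5% of all tested models. Of the 39, 17 were higher in basal spikelets (11535 of the 71963 models were) and 22 were lower (17.5% of all models were). The median log2 difference was -0.0027 for the 78 genes and -0.0045 for all models. LOG genes were split evenly, with 6 higher, 6 lower and 13 not called. Among the 13 oxidase or dehydrogenase genes, 6 were higher, 3 lower and 4 not called. Type-A regulators had 0 higher, 9 lower and 8 not called, and type-B regulators had 4 higher, 4 lower and 9 not called. Of the 17 higher genes, 4 would not have passed the level limit without basal libraries, and of the 22 lower ones 3 would not have passed it without central libraries. These 4 were dehydrogenase 3 on 1A, dehydrogenase 9 on 1B and dehydrogenase 4 on 3A and 3B. The lower 3 were LOGL3 on 4A, dehydrogenase 2 on 3D and the 3B oxidase/dehydrogenase. The limit thus bears on the direction of 6 of the 9 breakdown genes called in the mean, and of 0 of the type-A and type-B genes.

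**Figure D1:**
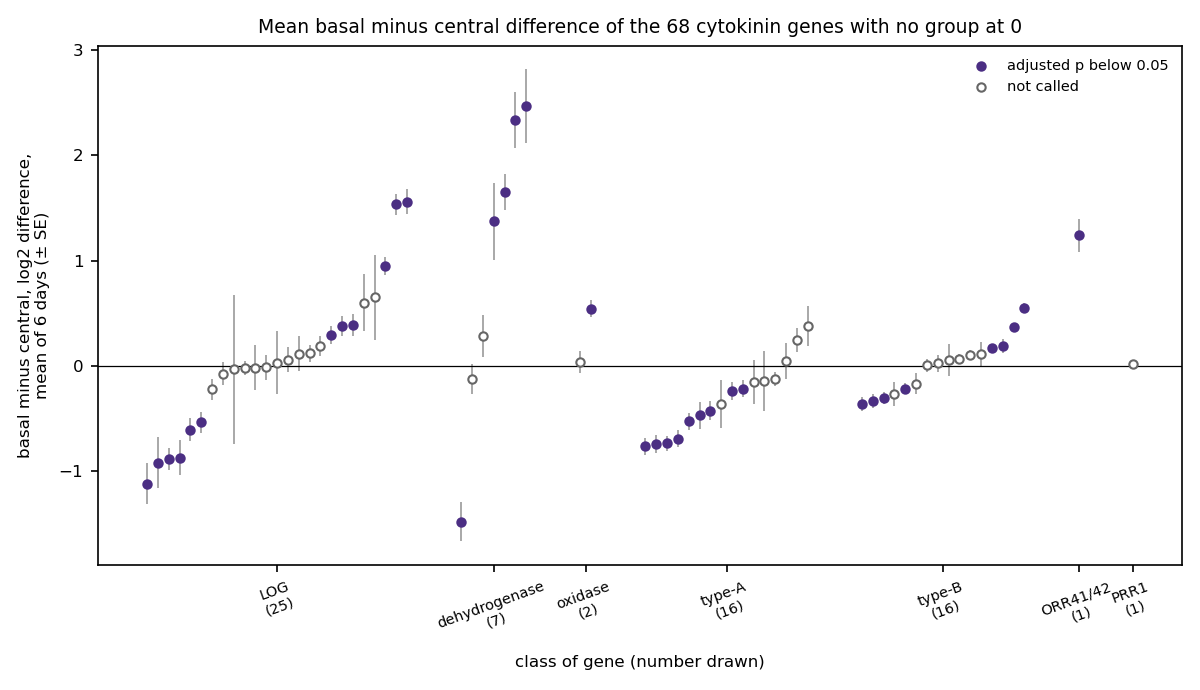
Basal minus central log2 difference in the mean of 6 days (vertical axis, bars are SE) for the 68 cytokinin genes with no group at 0, sorted within each class along the horizontal axis. Filled points passed an adjusted p of 0.05. Type-A points that are filled all lie below 0, and the 4 highest filled points belong to cytokinin dehydrogenases 3 and 4 and to LOGL10.

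The daily counts shifted over the course. On day 6, 15 genes were higher and 18 lower in basal spikelets. These 33 were 42.3% of the set, beside 17.1% of all models (7.91% higher and 9.2% lower). Of the 15 higher, 1 gene, dehydrogenase 4 on 3B, passed the level limit only with basal libraries of that day. On day 9, 21 were higher and 10 lower (31 in all, 39.7%, beside 36.3% of all models, 18.1% higher and 18.2% lower). On day 12, 15 were higher and 6 lower (21 in all, 26.9%, beside 28.1% of all models, 13.6% higher and 14.5% lower). More genes of the set were called higher than lower on days 9 and 12, a split not tested against that of all models. Cell division models had 14 higher and 4 lower on day 9, beside their counts on days 12 and 21 given above, and their part in the daily counts was not tested. On day 15, 16 were higher and 15 lower (31 in all, 39.7%, beside 22.7% of all models, 8.89% higher and 13.8% lower). On day 21, 5 were higher and 15 lower (20 in all, 25.6%, beside 17.1% of all models, 10.2% higher and 6.88% lower). On day 27, 3 were higher and 19 lower (22 in all, 28.2%, beside 21.7% of all models, 11.3% higher and 10.4% lower). Of the 19 lower, 4 passed the level limit only with central libraries of that day. The difference itself changed over days for 50 of 78 genes (64.1%, beside 56.7% of all models), and 11 genes were called in opposite directions on different days. The counts of day 15 and day 21 rest partly on single libraries, falling to 16 in all without basal day 15 replicate 1 and to 11 without central day 21 replicate 2.

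**Figure D2:**
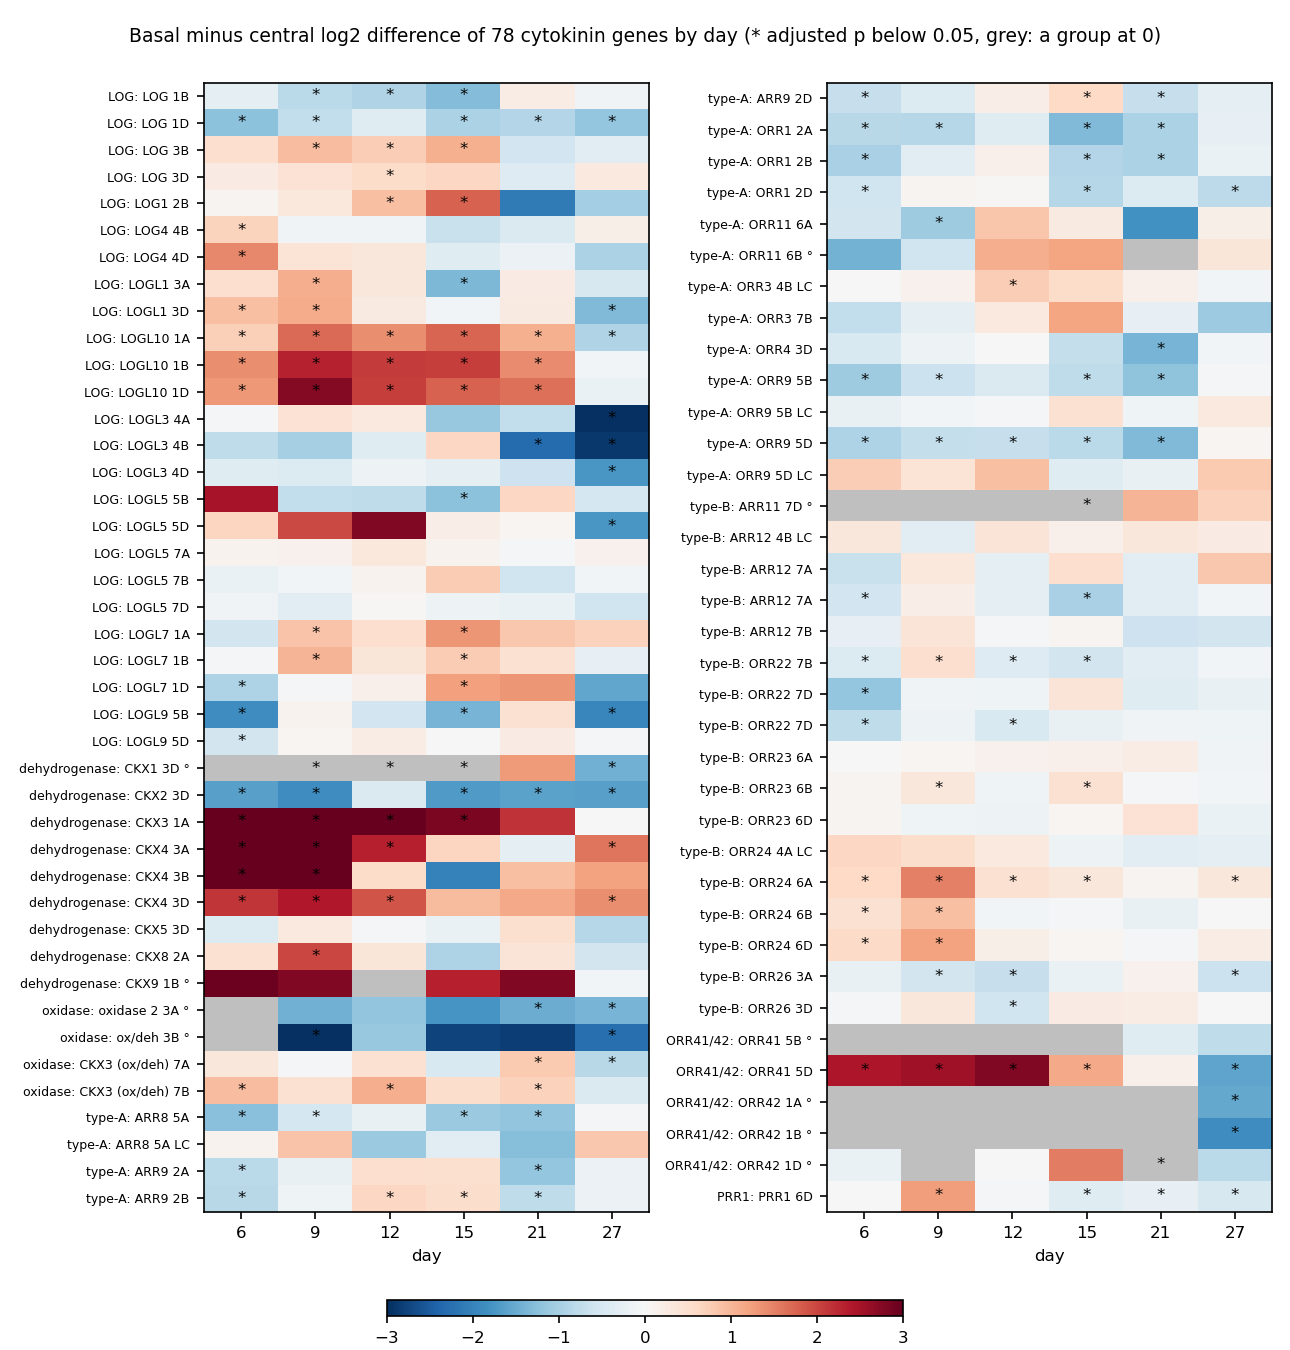
Basal minus central log2 difference of all 78 cytokinin genes (rows, named by class, name and chromosome) on each sampling day (columns). Red is higher in basal spikelets, blue is lower, colours stop at -3 and 3, stars mark an adjusted p below 0.05, grey cells have a group at 0, CKX is oxidase or dehydrogenase, LC is a low-confidence model and the ring marks a gene with any group at 0. The 3 LOGL10 rows are red through day 21, and the day 27 column is mostly blue.

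Among the LOG genes, the 3 copies of LOGL10 had the highest mean levels and were higher in basal spikelets on every day through day 21. The copy on chromosome 1B (TraesCS1B03G0512300, 315481724 to 315485161, plus strand, in the coordinates of the Chinese Spring RefSeq v2.1 assembly) exceeded central spikelets 2.90-fold in the mean of 6 days (log2 1.54 ± 0.10 with an adjusted p of 3.69e-12). On day 6 its libraries stood at 14.27, 11.79 and 12.47 FPKM in basal spikelets, against 4.99, 5.07 and 5.31 FPKM in central spikelets. On day 9 they stood at 23.32, 19.84 and 19.95 FPKM in basal spikelets, against 4.38, 4.49 and 3.81 FPKM in central spikelets. All basal libraries lay above all central ones on both days. On day 12 the values were 18.25, 22.76 and 24.09 FPKM in basal spikelets, against 5.55, 4.25 and 5.02 FPKM in central spikelets. On day 15 they were 12.05 and 12.8 FPKM in basal spikelets, against 2.3, 3.07 and 2.79 FPKM in central spikelets. The level was thus lower on day 15 than on day 12 at both positions, with the groups still apart. On day 21 the values were 1.47, 2.13 and 1.8 FPKM in basal spikelets, against 0.72 and 0.76 FPKM in central spikelets. On day 27 they were 0.14, 0.24 and 0.15 FPKM in basal spikelets, against 0.12, 0.19 and 0.3 FPKM in central spikelets, and the groups overlapped. The daily log2 difference was 1.40 ± 0.14 on day 6, 2.32 ± 0.14 on day 9, 2.11 ± 0.14 on day 12, 2.07 ± 0.16 on day 15 and 1.42 ± 0.22 on day 21 (largest adjusted p of these 5.26e-05), and -0.09 ± 0.38 on day 27 (adjusted p = 0.907).

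The other copies of LOGL10 were also higher in basal spikelets. The copy on 1A (TraesCS1A03G0419300, 278594818 to 278598438) had the highest mean level of all LOG genes, at 49.0 ± 5.2 FPKM in basal against 15.2 ± 0.83 FPKM in central spikelets on day 9 (SD, n = 3 each). Its difference in the mean of 6 days was 0.95 ± 0.08 (adjusted p = 1.32e-09). It was the one LOGL10 copy called lower on day 27, at 1.62, 2.02 and 1.28 FPKM in basal against 1.78, 3.69 and 4.26 FPKM in central spikelets, a difference of -0.90 ± 0.23 (adjusted p = 0.00518) with groups that overlapped. The copy on 1D, a model that joins TraesCS1D03G0401000LC and TraesCS1D03G0401300 (218807245 to 218816468), had a difference of 1.56 ± 0.12 (adjusted p = 8.05e-11) and peaked on day 9 at 25.7 ± 3.0 FPKM in basal against 3.78 ± 0.17 FPKM in central spikelets. The joined model may hold reads of another annotated gene. Summed over the copies, LOGL10 stood at 95.7 ± 9.6 FPKM in basal against 23.3 ± 0.63 FPKM in central spikelets on day 9, a ratio of 4.11. On day 27 the sums were 3.69 ± 0.65 FPKM in basal against 5.75 ± 2.8 FPKM in central spikelets.

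**Figure D3:**
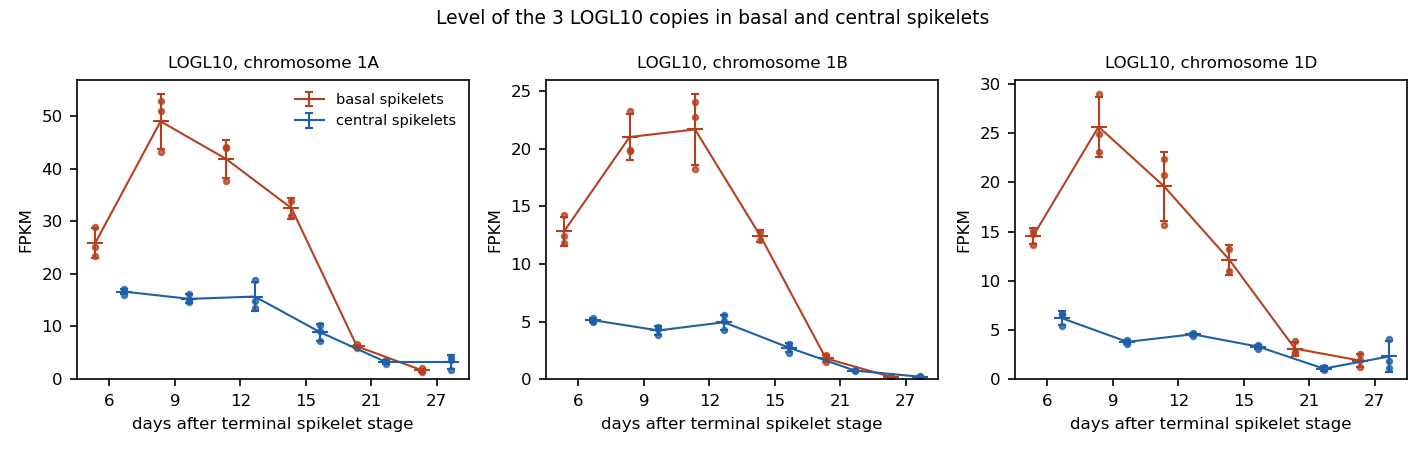
Level in FPKM (vertical axis) of the 3 LOGL10 copies on each sampling day (horizontal axis), with basal spikelets in red and central spikelets in blue. Points are libraries, bars are mean ± SD, and lines join group means. Basal libraries lie above central ones from day 6 to day 21 in each panel and meet them on day 27.

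Basal spikelets of a wheat ear form their florets later than central ones, so basal days 9, 12 and 15 were also set against the central day sampled before each. These comparisons share libraries with the daily ones, and basal days 21 and 27 were not compared in this way. On basal day 9 against central day 6, 13 cytokinin genes were higher and 11 lower. These 24 were 30.8% of the set, beside 24.0% of all models (13.2% higher and 10.8% lower). On basal day 12 against central day 9, 18 were higher and 8 lower. These 26 were 33.3% of the set, beside 25.8% of all models (15.0% higher and 10.7% lower). On basal day 15 against central day 12, 15 were higher and 12 lower. These 27 were 34.6% of the set, beside 20.7% of all models (12.4% higher and 8.28% lower). The total of 27 fell without either basal day 15 library. LOGL10 on 1B was higher by 1.98 ± 0.14, 2.33 ± 0.14 and 1.37 ± 0.15 on the log2 scale in these comparisons, in that order. The copy on 1A was higher by 1.5 ± 0.19, 1.43 ± 0.19 and 1.09 ± 0.20, and the copy on 1D by 1.99 ± 0.26, 2.35 ± 0.27 and 1.46 ± 0.29. All 9 of these LOGL10 differences passed the test.

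Some other LOG genes were lower in basal spikelets. LOGL3, another LOG of the same enzyme family, was called lower in all its copies on 4A, 4B and 4D. The 4D copy (TraesCS4D03G0729400, 477904524 to 477908577) had a difference of -0.60 ± 0.11 in the mean of 6 days (adjusted p = 6.19e-05) and of -1.75 ± 0.28 on day 27, at 0.907 ± 0.13 FPKM in basal against 3.26 ± 1.6 FPKM in central spikelets. The 4B copy (TraesCS4B03G0815900) had a difference of -1.12 ± 0.20 (adjusted p = 6e-05), with calls on days 21 and 27. The LOGL3 sum on day 27 was 1.36 ± 0.13 FPKM in basal against 9.97 ± 5.6 FPKM in central spikelets, where 1 central library was at 3.47 FPKM. The sum includes the 4A copy, at 1.32, 6.81 and 6.77 FPKM in central libraries without which it would not have passed the level limit, and is a description. A LOG-like gene on 1D (TraesCS1D03G1021300, 490461917 to 490466381) was called lower on 5 of 6 days, day 12 being the exception (-0.36, adjusted p = 0.269), and was lower by 0.88 ± 0.11 in the mean (log2 difference -0.88, adjusted p = 2.65e-07). Its level was 1.13 ± 0.16 FPKM in basal against 2.80 ± 0.36 FPKM in central spikelets on day 6. LOGL7 on group 1 changed side: its 3 copies summed to 12.5 ± 0.55 FPKM in basal against 19.5 ± 0.89 FPKM in central spikelets on day 6, and to 13.4 ± 1.4 FPKM in basal against 6.03 ± 0.87 FPKM in central spikelets on day 15. Its 1D copy was called lower on day 6 and higher on day 15.

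Over all 25 LOG genes, the daily counts were 6 higher and 4 lower on day 6, 8 and 2 on day 9, 6 and 1 on day 12, 8 and 5 on day 15, 3 and 2 on day 21, and 0 and 8 on day 27. Among all models, 7.91% were higher and 9.2% lower on day 6, 18.1% and 18.2% on day 9, 13.6% and 14.5% on day 12, 8.89% and 13.8% on day 15, 10.2% and 6.88% on day 21, and 11.3% and 10.4% on day 27. Of the 8 lower on day 27, LOGL3 on 4A and LOGL5 on 5D passed the level limit only with central libraries of that day, so their direction follows from the limit. The summed LOG level was 159 ± 9.2 FPKM in basal against 76.5 ± 3.1 FPKM in central spikelets on day 9, and 20.2 ± 0.64 FPKM in basal against 39.2 ± 11 FPKM in central spikelets on day 27. The libraries of the positions did not overlap on either day, but the day 27 sum includes LOGL3 on 4A and LOGL5 on 5D and is a description. From day 6 to day 27, in the mean of both positions, 65 of 78 cytokinin genes were called (83.3%, beside 79.9% of all models), 28 up (42.3% of all models were) and 37 down (37.6%), of which 9 and 3 passed the level limit only with libraries of the higher day. Of the LOG genes 2 rose and 18 fell. LOGL10 on 1B fell by 5.31 ± 0.15 on the log2 scale. LOGL7 fell by 5.13 to 7.42. The LOG genes that rose were LOGL5 on 5B and 5D, the 5D copy having passed the level limit only with day 27 libraries. The 5B copy averaged 0.05 FPKM in basal against 0.01 FPKM in central spikelets on day 6, while on day 27 it averaged 2.39 FPKM in basal against 3.64 FPKM in central spikelets.

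Genes for cytokinin breakdown had low levels, and 9 of 13 were called in the mean of 6 days, beside 33.5% of all models. As given above, 6 of these 9 passed the level limit only through the position where they were higher. The first of them by p was a dehydrogenase 4-like gene on 3D (TraesCS3D03G1050800, 579072265 to 579075075, minus strand), 3.14-fold higher in basal spikelets (1.65 ± 0.17 on the log2 scale, adjusted p = 2.46e-08). On day 6 it stood at 2.39, 2.25 and 2.72 FPKM in basal spikelets, against 0.52, 0.52 and 0.69 FPKM in central spikelets. Its day 9 level was 1.77, 1.58 and 1.47 FPKM in basal spikelets, against 0.22, 0.36 and 0.34 FPKM in central spikelets. On day 12 it stood at 1.23, 1.05 and 1.04 FPKM in basal spikelets, against 0.28, 0.31 and 0.29 FPKM in central spikelets. The positions did not overlap on any of these days. Its day 15 level was 0.85 and 0.72 FPKM in basal spikelets, against 0.5, 0.24 and 0.38 FPKM in central spikelets. On day 21 it stood at 0.46, 0.12 and 0.35 FPKM in basal spikelets, against 0.09 and 0.21 FPKM in central spikelets, with overlap. Its day 27 level was 2.91, 2.26 and 4.81 FPKM in basal spikelets, against 0.62, 1.5 and 1.95 FPKM in central spikelets. The day 27 groups were apart again and the basal libraries spread widely. The test called this gene on days 6, 9, 12 and 27, and its difference was not shown to change over days (adjusted p = 0.168).

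The dehydrogenase 4-like copies on 3A and 3B were also called higher, the 3B copy not without day 9 (0.85, adjusted p = 0.0836). The 3A copy (TraesCS3A03G1128900, 712718899 to 712721402) averaged 0.98 ± 0.21 FPKM in basal against 0.027 ± 0.025 FPKM in central spikelets on day 6, where 1 central library was at 0, with a difference in the mean of 6 days of 2.34 ± 0.26 (adjusted p = 6.86e-08). The 3 copies summed to 4.79 ± 0.48 FPKM in basal against 0.72 ± 0.03 FPKM in central spikelets on day 6, a sum that includes the 3B copy, which passed the level limit through basal day 6 libraries alone, and to 1.26 ± 0.31 FPKM in basal against 1.19 ± 0.07 FPKM in central spikelets on day 21. Dehydrogenase 3 on 1A (TraesCS1A03G0609600, 414059856 to 414062762) averaged 1.64 ± 0.26 FPKM in basal against 0.16 ± 0.01 FPKM in central spikelets on day 6 (mean of 6 days 2.47 ± 0.35, adjusted p = 3.61e-06). On day 27 its libraries spread from 0.38 to 2.91 FPKM in basal and from 0.36 to 3.29 FPKM in central spikelets. Neither this gene nor dehydrogenase 4 on 3A would have passed the level limit without basal libraries. Their direction is thus not independent of the limit. Oxidase/dehydrogenase 3 on 7B (TraesCS7B03G1227600, 725558751 to 725561968), the most abundant gene of the class, was higher by 0.55 ± 0.08 (adjusted p = 1.17e-05), at 4.02 ± 0.28 FPKM in basal against 1.85 ± 0.05 FPKM in central spikelets on day 12. Its copy on 7A (TraesCS7A03G1307300) was not called in the mean (0.04 ± 0.11, adjusted p = 0.845), being higher on day 21 and lower on day 27. Dehydrogenase 5 on 3D (TraesCS3D03G0705800) was called on no day (-0.12 ± 0.14, adjusted p = 0.579).

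Other breakdown genes on group 3 were lower in basal spikelets. Of these, the dehydrogenase 2-like gene on 3D would not have passed the level limit without central libraries. Its direction is thus not independent of the limit. The dehydrogenase 2-like gene on 3D (TraesCS3D03G0303900, 106389810 to 106394055) was 2.78-fold lower in basal spikelets (-1.48 ± 0.19 on the log2 scale, adjusted p = 6.31e-07), at 0.36 ± 0.13 FPKM in basal against 1.24 ± 0.29 FPKM in central spikelets on day 21. Oxidase 2 on 3A (TraesCS3A03G0298200, 112773559 to 112778395) was near 0 until day 15. It then stood at 0.28, 0.31 and 0.5 FPKM in basal against 1.03 and 1.21 FPKM in central spikelets on day 21. The day 27 values were 2.35, 2.79 and 1.59 FPKM in basal against 6.65, 6.96 and 5.32 FPKM in central spikelets. Both days were called (differences of -1.48 ± 0.29 and -1.40 ± 0.20), with no overlap between positions.

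The gene on 3B with the plain description oxidase/dehydrogenase (TraesCS3B03G0385800, 169507212 to 169511648) was lower as well (adjusted p = 7.96e-06 in the mean of 6 days). It was at 0 in all basal libraries of day 6, against 0.01, 0 and 0.12 FPKM in central spikelets. On day 9 it stood at 0, 0 and 0.01 FPKM in basal spikelets, against 0.16, 0.1 and 0.15 FPKM in central spikelets. Its day 12 level was 0.04, 0.17 and 0 FPKM in basal spikelets, against 0.14, 0.22 and 0.12 FPKM in central spikelets. These levels are near the detection limit, so no fold is given for them. On day 15 it stood at 0.02 and 0.02 FPKM in basal spikelets, against 0.09, 0.07 and 0.17 FPKM in central spikelets. Its day 21 level was 0, 0.01 and 0.03 FPKM in basal spikelets, against 0.09 and 0.18 FPKM in central spikelets. On day 27 it stood at 0.59, 0.44 and 0.16 FPKM in basal spikelets, against 2.28, 1.66 and 2.23 FPKM in central spikelets, a difference of -2.27 ± 0.34. These 3 central libraries were the only ones at 1 FPKM or more, so the gene was in the set through them and its day 27 deficit is a description. Central libraries lay above basal ones on days 9, 15, 21 and 27.

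The dehydrogenase 1-like gene on 3D (TraesCS3D03G0230100, 64880820 to 64883317) had the smallest p of the dehydrogenases for a difference that changed over days (adjusted p = 1.28e-05). It was at 0 in every central library through day 15 and in every basal library on day 6. Its day 9 level was 0.11, 0.08 and 0.1 FPKM in basal spikelets, and on day 27 it stood at 0.68, 0.55 and 0.45 FPKM in basal against 1.31, 1.84 and 1.68 FPKM in central spikelets. It was called higher on days 9, 12 and 15 and lower on day 27. The 3 central libraries of day 27 were the only ones at 1 FPKM or more, so the day 27 call and the change over days that it enters are not independent of the level limit. Over the 13 breakdown genes the counts ran from 5 higher and 1 lower on day 6 and 6 and 2 on day 9 to 2 and 5 on day 27 (for all models, 7.91% higher and 9.2% lower on day 6, 18.1% and 18.2% on day 9, and 11.3% and 10.4% on day 27). Of these calls, some are not independent of the level limit. They are those of dehydrogenase 4 on 3B on day 6, and of dehydrogenase 1 and the 3B oxidase/dehydrogenase on day 27. Over all days, dehydrogenases 3 on 1A, 4 on 3A and 9 on 1B needed basal libraries to pass the limit, and dehydrogenase 2 on 3D central ones. Any daily calls of these genes in those directions are thus not independent of the limit either. The summed level of the 13 genes was 14.8 ± 2.2 FPKM in basal against 7.50 ± 0.94 FPKM in central spikelets on day 6, and 15.5 ± 1.9 FPKM in basal against 24.2 ± 4.5 FPKM in central spikelets on day 27. Both sums include genes that passed the level limit only through the higher side, and are a description. From day 6 to day 27, 8 of the 13 were called higher and 2 lower (beside 42.3% and 37.6% of all models). Of the 8, dehydrogenases 1 and 9 and the 3B oxidase/dehydrogenase reached 1 FPKM in day 27 libraries alone, and of the 2, dehydrogenase 4 on 3B did so on day 6 alone, so the direction of these 4 genes follows from the level limit. Oxidase 2 reached 1 FPKM on days 21 and 27 alone.

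**Figure D4:**
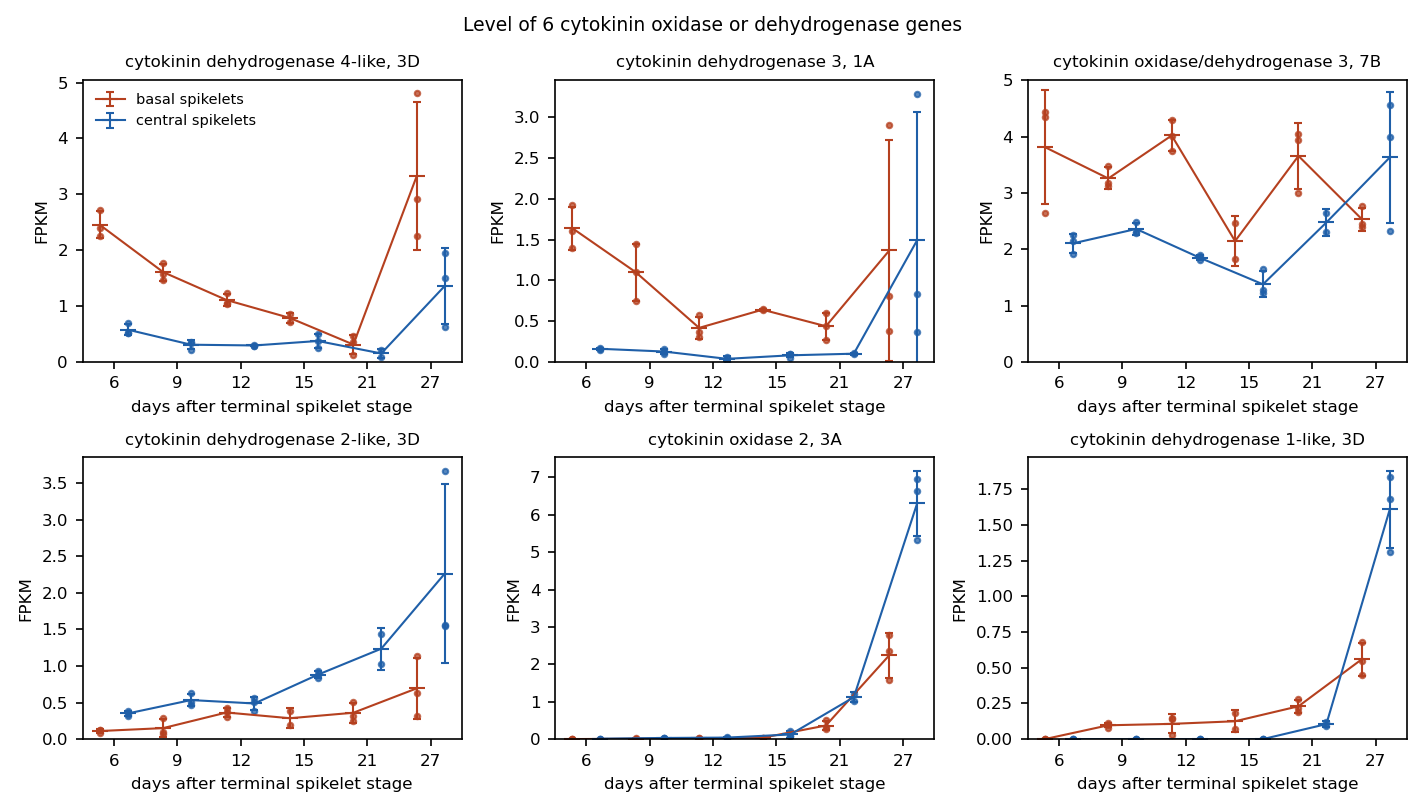
Level in FPKM (vertical axes, each with its own scale) of 6 cytokinin oxidase or dehydrogenase genes by sampling day, with basal spikelets in red and central spikelets in blue. Points are libraries, bars are mean ± SD, and lines join group means. The top row holds genes called higher in basal spikelets in the mean of 6 days, the bottom left and middle panels hold genes called lower, and the bottom right gene crosses over by day 27.

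The relay between hormone and regulators was counted by other words of the descriptions, in genes outside the 78. Of 8 tested receptor models, 6 were higher in basal spikelets and 0 lower in the mean of 6 days, a comparison in which 33.5% of all models were called and 17.5% were lower. Histidine kinase 3, a cytokinin receptor, averaged 15.2 FPKM over basal against 9.99 FPKM over central libraries for its 3D copy (TraesCS3D03G0937300, log2 difference 0.58 ± 0.03, adjusted p = 7.74e-15). The 3A copy had a difference of 0.56 ± 0.05. Of 13 phosphotransfer models, 4 were higher and 2 lower. Several of the 13 were described as pseudo phosphotransfer proteins, among them a higher one on 1D (TraesCS1D03G0292800, log2 difference 0.28, adjusted p = 0.028). The count thus does not stand for the relay proteins alone. Of 5 models for isopentenyl transfer, 1 was higher and 0 lower. Adenylate isopentenyltransferases catalyse the first step of synthesis, while 2 of the 5 were described as enzymes that modify tRNA by the same kind of transfer. On the side of hormone storage and salvage, 4 of 6 zeatin glycosyltransferase models were lower and 0 higher, and 6 of 8 adenine phosphoribosyltransferase models were lower and 0 higher. By day, the zeatin models had 0 higher and 2 lower on day 9, and 2 higher and 0 lower on day 27. The phosphoribosyltransferase models had 2 higher and 2 lower on day 9, and 0 higher and 6 lower on day 21. Whether any of these models passed the level limit only with central libraries was not checked. Purine permeases, which can carry cytokinins, had 2 higher and 5 lower of 15. Knotted homeobox genes, some of which are known to raise cytokinin synthesis in meristems, had 6 higher and 8 lower of 21.

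Type-B regulators were split. The 3 copies of ORR24 on group 6 were called higher in basal spikelets. The 6A copy (TraesCS6A03G0348500, 127485791 to 127491112, also described as ARR12) was 1.47-fold higher in basal spikelets (0.55 ± 0.05 on the log2 scale, adjusted p = 4.34e-10). On day 6 it stood at 9.08, 8.05 and 8.25 FPKM in basal spikelets, against 6.08, 5.95 and 5.6 FPKM in central spikelets. Its day 9 level was 7.87, 7.15 and 6.49 FPKM in basal spikelets, against 2.53, 2.73 and 2.24 FPKM in central spikelets. Day 9 held the widest gap of the course, at 1.52 ± 0.11 on the log2 scale. On day 12 it stood at 4.28, 4.37 and 4.88 FPKM in basal spikelets, against 3.25, 2.86 and 3.6 FPKM in central spikelets. Its day 15 level was 5.65 and 5.78 FPKM in basal spikelets, against 3.76, 4.56 and 4.17 FPKM in central spikelets. The positions were still apart on both days. On day 21 it stood at 3.6, 3.48 and 3.28 FPKM in basal spikelets, against 3.66 and 3.57 FPKM in central spikelets, with overlap. Its day 27 level was 2.83, 2.71 and 3.57 FPKM in basal spikelets, against 2.5, 2.64 and 2.54 FPKM in central spikelets, again with no overlap. The 6D copy (TraesCS6D03G0303200) had a difference of 0.37 ± 0.04 (adjusted p = 7.92e-08), and the 6B copy (TraesCS6B03G0444600) one of 0.17 ± 0.04 (adjusted p = 0.00424) that was not called without day 9 (0.02, adjusted p = 0.803).

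ORR23, the most abundant type-B regulator, was not called in the mean in any of its 3 copies. The 6B copy (TraesCS6B03G1108900) averaged 0.10 ± 0.05 (adjusted p = 0.112) and was higher on days 9 and 15, and the 6A copy (TraesCS6A03G0921200) averaged 0.07 ± 0.05 (adjusted p = 0.287). The type-B genes called lower were ORR26 on 3A (TraesCS3A03G0920800, -0.36 ± 0.07, adjusted p = 0.000194), ARR12 on 7A (TraesCS7A03G0343900, -0.33 ± 0.07, adjusted p = 0.000382), ORR22 on 7D (TraesCS7D03G0331900, -0.31 ± 0.06, adjusted p = 0.000105) and ORR22 on 7B. The fourth called higher, beside ORR24, was a low-confidence ARR12 model on 4B. ORR26 stood at 1.58 ± 0.11 FPKM in basal against 2.49 ± 0.34 FPKM in central spikelets on day 12. The group 7 genes lie in pairs on opposite strands, 120 to 628 kb apart. From day 6 to day 27, 3 of 17 type-B genes rose and 11 fell (beside 42.3% and 37.6% of all models), with ORR23 and ORR24 falling in all copies. Of these, ORR24 on 4A and ARR12 on 7A (TraesCS7A03G0343400) passed the level limit only with day 6 libraries and ARR11 on 7D only with day 27 libraries.

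Type-A regulators were called in 1 direction in the mean of 6 days. The first by p was ARR8 on 5A (TraesCS5A03G0369100, 297005057 to 297006522, plus strand), 1.66-fold lower in basal spikelets (log2 difference -0.73 ± 0.07, adjusted p = 6.75e-09). On day 6 it stood at 3.35, 3.62 and 3.95 FPKM in basal spikelets, against 9.33, 7.54 and 10.51 FPKM in central spikelets. Its day 9 level was 6.06, 7.43 and 6.0 FPKM in basal spikelets, against 9.27, 9.7 and 9.42 FPKM in central spikelets. Every basal library lay below every central one on these days. On day 12 it stood at 5.35, 5.85 and 5.59 FPKM in basal spikelets, against 6.39, 6.23 and 6.48 FPKM in central spikelets. Its day 15 level was 4.85 and 3.67 FPKM in basal spikelets, against 9.13, 9.01 and 7.56 FPKM in central spikelets. The day 12 gap was small and not called (-0.21 ± 0.17, adjusted p = 0.379), while day 15 was called (-1.12 ± 0.20, adjusted p = 0.000106). On day 21 it stood at 6.6, 9.11 and 7.23 FPKM in basal spikelets, against 18.11 and 20.5 FPKM in central spikelets. Its day 27 level was 22.15, 16.32 and 22.94 FPKM in basal spikelets, against 17.31, 25.7 and 25.69 FPKM in central spikelets, with overlap.

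The ORR9-like genes at matching places on 5B and 5D were also lower. The 5D copy (TraesCS5D03G0351300, 226845661 to 226847585) had a difference of -0.74 ± 0.09 (adjusted p = 1.38e-07) and was lower on each of the first 5 days. Summed over the 3 copies, the level was 19.2 ± 2.7 FPKM in basal against 49.9 ± 4.3 FPKM in central spikelets on day 21, and 51.8 ± 9.6 FPKM in basal against 56.2 ± 12 FPKM in central spikelets on day 27. In each copy a low-confidence model with the same description overlaps on the opposite strand, and the strand setting of the counting was not given in the sources used here, so reads of the pairs may not be separated. ORR1 was lower in all 3 copies on group 2. Its 2A copy (TraesCS2A03G0771400, 536728492 to 536730911) had a difference of -0.76 ± 0.08 (adjusted p = 3.37e-08) and stood at 1.31 ± 0.18 FPKM in basal against 3.04 ± 0.63 FPKM in central spikelets on day 15. ORR4 on 3D, also called lower, stood at 1.5 FPKM in basal against 4.34 FPKM in central spikelets on day 21.

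ARR9 on group 2 crossed over and back. Its 3 copies summed to 10.5 ± 1.6 FPKM in basal against 18.9 ± 2.0 FPKM in central spikelets on day 6. On day 12 the sums were 35.1 ± 3.9 FPKM in basal against 26.3 ± 1.1 FPKM in central spikelets, and on day 21 they were 7.58 ± 0.77 FPKM in basal against 14.8 ± 0.49 FPKM in central spikelets. The libraries of the positions did not overlap on these days. The 2B copy (TraesCS2B03G1455300) was called lower on days 6 and 21 and higher on days 12 and 15, and its difference changed over days (adjusted p = 4.14e-06). The 2D copy (TraesCS2D03G1228700) was the most abundant of the 3, and its call in the mean (-0.21 ± 0.08, adjusted p = 0.0413) was lost under several settings. Daily counts over the 17 type-A genes were 0 higher and 9 lower on day 6, 0 and 5 on day 9, 2 and 1 on day 12, 2 and 6 on day 15, 0 and 9 on day 21, and 0 and 1 on day 27. Among all models, 9.2% were lower on day 6, 18.2% on day 9, 14.5% on day 12, 13.8% on day 15, 6.88% on day 21 and 10.4% on day 27. From day 6 to day 27, 10 rose and 5 fell (beside 42.3% and 37.6% of all models), with ARR8 on 5A rising by 1.97 ± 0.12 on the log2 scale.

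**Figure D5:**
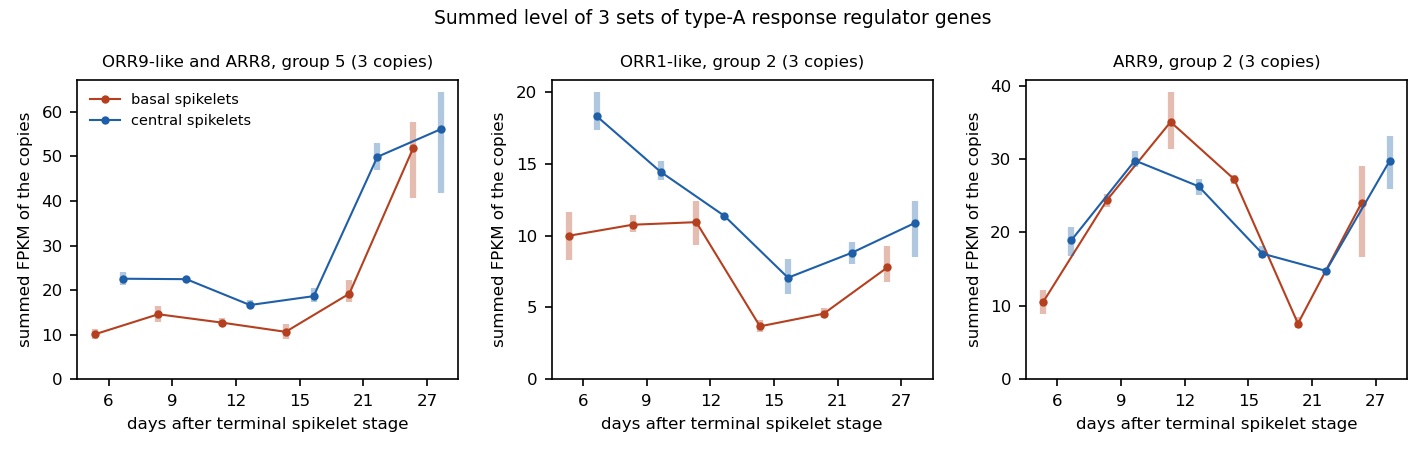
Summed level in FPKM (vertical axes) of 3 sets of type-A response regulator genes by sampling day, with basal spikelets in red and central spikelets in blue. Dots are group means and shaded bars run from the lowest to the highest library. In the left panel basal spikelets are lower until day 21 and meet central ones on day 27, and in the right panel they are higher on days 12 and 15.

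The remaining regulators are ORR41 and ORR42, counted as type C in rice, and PRR1, a pseudo-regulator known as part of the circadian clock in Arabidopsis. ORR41 on 5D (TraesCS5D03G0875200, 462841956 to 462842731) was 2.36-fold higher in basal spikelets (1.24 ± 0.16 on the log2 scale, adjusted p = 7.53e-07), with a difference that changed over days (adjusted p = 7.03e-08). On day 6 it stood at 1.24, 1.5 and 2.01 FPKM in basal spikelets, against 0.26, 0.42 and 0.23 FPKM in central spikelets. Its day 9 level was 1.75, 1.45 and 1.7 FPKM in basal spikelets, against 0.34, 0.29 and 0.15 FPKM in central spikelets. Basal libraries were well above central ones on both days. On day 12 it stood at 2.33, 3.01 and 3.1 FPKM in basal spikelets, against 0.36, 0.36 and 0.46 FPKM in central spikelets. Its day 15 level was 2.75 and 2.65 FPKM in basal spikelets, against 0.86, 0.77 and 1.75 FPKM in central spikelets. The gap was narrower on day 15, when the level in central spikelets was higher than on day 12. On day 21 it stood at 2.39, 3.71 and 1.4 FPKM in basal spikelets, against 1.8 and 3.25 FPKM in central spikelets, with overlap. Its day 27 level was 1.78, 1.16 and 1.22 FPKM in basal spikelets, against 5.14, 4.4 and 3.97 FPKM in central spikelets, and the order of the positions was reversed (-1.58 ± 0.28, adjusted p = 0.000171).

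ORR42 was measured chiefly on day 27. The 1A copy (TraesCS1A03G1081800, 596660306 to 596662206), near 0 through day 21, stood on day 27 at 3.94, 4.19 and 2.91 FPKM in basal spikelets, against 7.81, 11.76 and 14.65 FPKM in central spikelets, a difference of -1.55 ± 0.27 (adjusted p = 0.00039). The 1B copy, at 0 in every library before day 27, averaged 2.16 FPKM in basal against 8.35 FPKM in central spikelets on that day. All 5 ORR41 and ORR42 genes were called higher on day 27 than on day 6, but ORR41 on 5B and the 3 ORR42 copies reached 1 FPKM in day 27 libraries alone. The calls of ORR41 on 5B and of ORR42 are therefore not independent of the level limit, and their levels are given as a description. The call of ORR41 on 5D does not rest on the limit.

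PRR1 on 6D (TraesCS6D03G0514700, 314393962 to 314397003) was the most abundant of the regulators and alternated between sampling days. On day 6 it stood at 14.31, 15.45 and 16.01 FPKM in basal spikelets, against 15.71, 15.53 and 16.42 FPKM in central spikelets. Its day 9 level was 13.74, 12.93 and 14.2 FPKM in basal spikelets, against 5.78, 5.9 and 5.41 FPKM in central spikelets. Day 9 alone was higher in basal spikelets (1.26 ± 0.08, adjusted p = 3.4e-13). On day 12 it stood at 22.61, 18.58 and 21.13 FPKM in basal spikelets, against 20.64, 20.96 and 20.4 FPKM in central spikelets. Its day 15 level was 5.28 and 6.27 FPKM in basal spikelets, against 6.34, 7.25 and 7.13 FPKM in central spikelets. The level was lower on day 15 than on day 12 at both positions. On day 21 it stood at 13.98, 15.24 and 15.31 FPKM in basal spikelets, against 19.74 and 19.12 FPKM in central spikelets. Its day 27 level was 4.12, 4.76 and 3.65 FPKM in basal spikelets, against 6.18, 6.45 and 5.97 FPKM in central spikelets. Basal libraries were below central ones on days 15, 21 and 27, all called. The hour of sampling was not given in the sources used here.

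Copies of one name on the same chromosome group could be compared in 23 sets that held 58 high-confidence models. The sets follow the described names, so ARR12 and ORR22 on group 7 each include neighbouring genes of the same chromosome. ARR8 on 5A is not in the ORR9 set. All copies were called higher in 4 sets and lower in 4 sets, 8 sets had some copies called in 1 direction, 7 had none called, and 0 had copies called in both directions. Such sets were not formed for all models, of which 33.5% were called in this mean, so these counts are a description. The sets called higher throughout were LOGL10, dehydrogenase 4, ORR24 and a LOG pair on group 3, and those called lower throughout were LOGL3, ORR1, ORR9 and a LOG pair on group 1. The limit bears on the direction of dehydrogenase 4 on 3A and 3B and of LOGL3 on 4A, as given above. Without day 9, the 3B copies of dehydrogenase 4 and LOG and the 6B copy of ORR24 were not called. Copies share sequence, so reads common to them may have been divided by a rule that is not stated, and copies are not independent replicates. The test of change over days, in the mean of both positions, called 76 of 78 cytokinin genes, beside 94.0% of all models.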

How the data were processed

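The authors deposited 1 table of gene models with 2 columns for each of 34 libraries. Per the file headers, 1 held estimated counts, which were whole numbers without normalization, and 1 held FPKM, scaled by the authors for transcript length and library total. Not given in the sources used here were the aligner, counting tool, strand setting and wheat build. The submitters' processing notes name Bowtie 0.12.2 and mouse builds. Model positions were checked against the RefSeq annotation of Chinese Spring RefSeq v2.1. Of 72 high-confidence members, 95.8% overlapped a protein-coding gene, against 6.9% after a shift of 5 Mb.

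The members and lists were chosen with earlier results of these data known. The test ran on models at or above 1 FPKM in 2 or more libraries, which held 98.9 to 99.2% of the counts. Deposited counts were scaled by TMM and fitted with 12 group means in edgeR 4.0.16 (R 4.3.3; glmQLFit with legacy = FALSE, glmQLFTest). P-values were adjusted by the Benjamini-Hochberg method over every model tested, with a threshold of 0.05. Standard errors (SE) are the absolute log2 difference divided by the square root of F. Of small counts, 33.9 to 35.6% were multiples of 4, so 12 counts per library was taken as the floor for a group at 0, and no fold is given against such a group; counting error only is covered. The table holds no fragment number.

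The text names all LOGL10 models and, per class, up to 3 called genes of smallest p in each direction, the 2 of highest mean level and the 1 of smallest p for a difference changing over days; values of every library are given for LOGL10 on 1B and the first of each class. Other genes named were chosen after their values were seen. Alternatives were the DESeq2 size factors, DESeq2 1.42.0, limma 3.58.1 on log2(FPKM + 1) and log2(FPKM + 0.1), other filters, the older quasi-likelihood form, a replicate block, the mean without day 9, and each library left out. Replicate numbers were not taken to pair the samples. No 2 libraries were identical.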

Additional observations from a re-analysis of the deposited data

Results flagged for a closer look

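For 24 of the 32 named cytokinin genes, the basal minus central difference itself changed over the 6 days, by edgeR's quasi-likelihood test of position by day with Benjamini-Hochberg adjustment over all models. The naming rule used this test in part, so the count of 24 is no measure of the set, in which 50 of 78 genes were called, beside 56.7% of all models. The smallest adjusted p was that of PRR1 on 6D (5.31e-12), which was higher in basal spikelets on day 9 and lower on days 15, 21 and 27. ORR41 on 5D followed (7.03e-08), higher early and lower on day 27.

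Among the enzymes, LOGL10 had adjusted p-values of 3.96e-07 on 1A, 4.83e-05 on 1B and 2.64e-05 on 1D, with the basal excess gone by day 27. LOGL3 had 0.00121 on 4B and 0.00965 on 4D, with its largest deficit on day 27. Dehydrogenase 1 on 3D had 1.28e-05, dehydrogenase 4 on 3A 3.42e-05 and dehydrogenase 3 on 1A 0.00999. As given above, dehydrogenase 1 passed the level limit only with central day 27 libraries. Dehydrogenase 4 on 3A and dehydrogenase 3 on 1A would not have passed it without basal libraries. These values are thus not independent of the limit. Oxidase/dehydrogenase 3 had 0.00337 on 7A and 0.000748 on 7B.

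Among type-B regulators, ORR24 had 4.38e-07 on 6A, 4.38e-06 on 6B and 3.07e-07 on 6D, each with its widest gap on day 9. ARR12 on 7A had 0.00403, ORR23 on 6B 0.0188, ORR22 on 7D 0.0225 and ORR26 on 3A 0.0278. Among type-A regulators, ARR9 had 4.14e-06 on 2B and 0.00147 on 2D, ARR8 on 5A 0.000134, ORR9 on 5D 0.00445 and ORR1 on 2A 0.0189.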

How the results depend on the processing

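Of 24 named genes called in the mean of 6 days, 22 kept the call under every alternative that tested them. Most were named for a small p in this mean, so the count of 22 is no measure of the set. Some, such as dehydrogenase 3 on 1A and dehydrogenase 4 on 3A, fell outside the stricter filter and were tested in 9 other settings. ARR9 on 2D lost it in 18 of 34 fits that left out 1 library and in 3 of 10 other settings (largest adjusted p 0.167), and ORR24 on 6B lost it without day 9 (0.02, adjusted p = 0.803). PRR1 on 6D reversed without day 9 (-0.22, adjusted p = 2.58e-05), since day 9 was its only called day of basal excess. Of named genes not called in the mean, 4 gained a call: dehydrogenase 1 on 3D under DESeq2 and 1 limma setting (lowest adjusted p 1.08e-11), ORR42 on 1A under both limma settings (0.000544), ARR9 on 2B under 1 limma setting (0.0337), and ORR23 on 6B without basal day 9 replicate 1 or basal day 12 replicate 3 (0.023).

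Requiring 1 FPKM in 12 libraries, which tests fewer genes, left 12 called on day 27 and 41 between day 27 and day 6. With each library left out in turn, the genes called ranged over 15 to 18 higher and 20 to 23 lower in the mean, 16 to 33 on day 15, 11 to 21 on day 21 and 16 to 30 for basal day 15 against central day 12, where a lone library was assumed to vary like the other groups. Same-numbered libraries correlated above 0.1 in 2 of 16 pairs, so the numbers were not taken to pair samples. With a replicate block, 17 genes were higher and 22 lower, and within each day 15 and 20. Groups of 2 on days 15 and 21, and levels under 0.1 FPKM, limit what could be detected.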
